A study of Mus musculus with 14 samples.

Results

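Fetub and 6 further genes for secreted proteins of the acute phase response (Lcn2, C3, Saa3, Hp, Cfb and Ltf) were followed through polyA RNA-seq of mouse mammary epithelial cells. The 7 genes were taken by symbol from 23284 genes, all were found in both expression tables, and the group was chosen by measured values, Fetub for its low level after knockdown of the ETS transcription factors Etv4 and Etv5. EpH4 is a mouse mammary gland epithelial line, and EpRas is its derivative transformed with H-Ras. The 8 untransfected libraries formed 4 groups of 2 biological replicates, namely EpH4 and EpRas, each left untreated or given TGF-β (TGF-beta3, 1 ng/ml) for 48 h. The 6 transfected libraries were EpRas cells given a control siRNA (siNC) or 1 of 2 siRNA pairs against Etv4 and Etv5 together, each without and with the same TGF-β treatment, with 1 library per condition. EpH4 cells were kept in 10% serum and EpRas cells in 4%, so that serum and line cannot be told apart. Levels are given in FPKM, fragments per kilobase of exon scaled to the mapped fragments of the library, and the untransfected and transfected libraries were processed in separate runs.

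The acute phase response is the shift in secreted proteins that follows infection or injury, and liver is its main source, while epithelia, the mammary gland included, make some of the same proteins locally. Interleukin-6 signalling through STAT3, C/EBP factors and NF-κB are known to drive many of these genes. Fetub encodes fetuin-B, a member of the cystatin superfamily that inhibits astacin metalloproteinases and keeps the egg coat permeable to sperm, and it is a gene of liver. Lcn2 encodes lipocalin-2, which binds bacterial siderophores, and Ltf encodes lactoferrin, an iron-binding protein of milk. C3 is the central component of complement and Cfb is factor B, which joins C3 in the alternative pathway. Hp encodes haptoglobin, the haemoglobin-binding plasma protein, and Saa3 a serum amyloid A protein made outside liver.

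Since the members were chosen around an ETS factor knockdown, the reference sequence at their starts was read for the ETS core GGAA, searched on both strands, where TTCC is the same core on the opposite strand. RefSeq windows (GRCm38.p6, 250 bases before to 50 bases after a start) were found for 5 of the 7 members, Fetub with 2 starts. The 4 windows of the genes that the results turn on read as follows from 5′ to 3′ on the strand of the gene, with ETS cores in capitals.
Fetub, first start, chr16:22918132-22918431, plus strand: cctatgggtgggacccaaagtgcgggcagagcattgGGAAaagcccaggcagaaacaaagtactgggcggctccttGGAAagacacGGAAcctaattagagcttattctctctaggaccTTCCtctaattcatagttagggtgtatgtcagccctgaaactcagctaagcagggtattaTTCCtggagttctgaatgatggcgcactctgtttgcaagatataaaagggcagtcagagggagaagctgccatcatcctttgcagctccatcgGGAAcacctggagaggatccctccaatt
Fetub, second start, chr16:22919972-22920271, plus strand: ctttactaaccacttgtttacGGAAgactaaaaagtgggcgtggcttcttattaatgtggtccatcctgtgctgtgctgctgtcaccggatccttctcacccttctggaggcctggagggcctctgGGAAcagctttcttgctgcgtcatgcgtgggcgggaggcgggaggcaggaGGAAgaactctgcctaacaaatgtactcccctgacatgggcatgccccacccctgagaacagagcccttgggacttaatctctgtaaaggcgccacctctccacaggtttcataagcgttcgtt
Lcn2, chr2:32387690-32387989, minus strand: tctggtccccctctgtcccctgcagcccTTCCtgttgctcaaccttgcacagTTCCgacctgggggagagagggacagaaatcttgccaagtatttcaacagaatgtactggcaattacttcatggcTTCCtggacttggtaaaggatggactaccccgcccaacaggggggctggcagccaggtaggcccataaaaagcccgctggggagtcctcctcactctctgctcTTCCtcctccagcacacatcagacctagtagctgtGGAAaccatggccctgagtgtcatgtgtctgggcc
C3, chr17:57228087-57228386, minus strand: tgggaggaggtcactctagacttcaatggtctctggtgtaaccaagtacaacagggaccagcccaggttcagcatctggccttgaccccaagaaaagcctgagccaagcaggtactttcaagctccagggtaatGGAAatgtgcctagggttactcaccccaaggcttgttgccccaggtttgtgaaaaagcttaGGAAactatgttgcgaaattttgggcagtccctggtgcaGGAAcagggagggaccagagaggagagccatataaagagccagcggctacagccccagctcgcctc
The window at the first Fetub start held 6 cores and that at the second start 3, against a median of 3 over all 32851 windows, of which 96.0% held at least 1. The longer ETS letters CCGGAAGT were in neither Fetub window, nor in those of Lcn2 and C3, and in 3.89% of all windows. AGGAAG, which contains the core, began 132 bases before the first Fetub start and 75 bases before the second, and was in 35.4% of all windows. The Lcn2 window held 3 matches of these letters, the Ltf window 1 and those of C3 and Saa3 none. The core itself was found 5 times each in the windows of Lcn2, Saa3 and Ltf and 3 times in that of C3. The first Fetub window also held the TATA box letters TATAAA, 31 bases before the start (13.6% of all windows), and the C3 window held them 15 bases after its start. The C/EBP letters TTGCNNAA were found once each in the windows of Lcn2, C3, Saa3 and Ltf and in 10.8% of all windows, and in neither Fetub window. None of the members' windows held the AP-1 letters TGANTCA or the STAT letters TTCNNNGAA, which were in 7.81% and 8.30% of all windows. These matches describe the sequence and show no binding.

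The depth of the libraries was read from the steps between low FPKM values, since 1 read has a fixed worth in each library. Relative to the first EpH4 replicate, the untransfected libraries had depths of 0.609 to 1.36 and the transfected libraries of 1.26 to 2.201. The epithelial markers added up to between 2439 and 9023 FPKM in every library, while the 6 hepatocyte markers added up to at most 0.160 FPKM and Alb, Ttr, Apoc3, Cyp3a11 and Tat were listed at 0 throughout. The 9 leukocyte markers found in the tables added up to 10.6 to 14.7 FPKM in EpH4, 14.3 to 19.4 FPKM in EpRas and 11.4 to 28.1 FPKM in transfected libraries, and Emr1 and Elane were listed at 0 in all 14 libraries. The 7 fibroblast markers added up to 5.50 to 43.9 FPKM in transfected libraries and are given for the untransfected groups beside C3. The part of these markers in the results was not tested.

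The siRNA libraries were first compared at their targets. Etv4 was at 57.4 FPKM in the siNC library without TGF-β, 11.6 in pair 1 and 27.9 in pair 2. In the TGF-β series the values were 64.3, 12.6 and 18.9 FPKM in the same order. Etv5 was at 8.85 FPKM in siNC, 1.61 in pair 1 and 1.26 in pair 2 in untreated cells, and at 5.34, 1.24 and 1.20 FPKM in treated cells. Both targets were thus lower than siNC in all 4 knockdown libraries, and Etv4 was left at the highest share, 48.5% of siNC, by pair 2 without TGF-β. The labels give the sequence of the Etv5 siRNA of pair 2, which is shown with its site to place it against the members.
Etv5 siRNA of pair 2: uuaaauuccaugccucggccagucc
Etv5 site, chr16:22392674-22392698, minus strand: ggactggccgaggcatggaatttaa
This site lies in coding sequence of exon 11 of 13 of Etv5 (mm10, GENCODE vM21), and the siRNA strand given in the labels is its reverse complement over all 25 bases. The longest run that this siRNA shares on either strand with any annotated Fetub transcript was 8 bases, and it was 10 bases for C3, Saa3 and Ltf and 7 bases for Lcn2, Hp and Cfb. The remaining siRNAs of both pairs were not searched against the members. Etv5 lies on the chromosome of Fetub, 479 kb away.

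Fetub was high in the control siRNA libraries and low in every other library. Without TGF-β it was at 20.2 FPKM in siNC, 1.57 in pair 1 and 0.929 in pair 2. After TGF-β treatment Fetub was at 25.8 FPKM in siNC, listed at 0 in pair 1 and at 0.382 in pair 2. No value of a knockdown library came near either control library. The leukocyte marker sums were also highest in siNC, at 24.0 and 28.1 FPKM, against 11.4 to 20.1 FPKM in the knockdown libraries. Itgb2 made up most of them, at 17.6 and 16.6 FPKM in siNC and 6.31 to 15.1 FPKM in the knockdown libraries. The list did not move as one, since Ptprc and Itgam reached at most 0.0267 and 0.0221 FPKM in transfected libraries. The part of these markers in the Fetub values was not tested. The Fetub values were those by which it had been picked, and with 1 library per condition they are described without a test and have no replicate check. Pair 1 left 7.77% and pair 2 left 4.61% of the siNC level without TGF-β, and pair 2 left 1.48% with TGF-β. On the log2(FPKM + 1) scale, which understates the change of low values, the difference of the mean of both pairs from siNC was -3.23 without and -4.49 with TGF-β.

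The reads behind these values were about 170 and 379 in the siNC libraries without and with TGF-β. They were 18 and 10 in pairs 1 and 2 without TGF-β, and 0 and 4 with it. The table gives Fetub as 1 row with 2 transcription starts, so its values are whole multiples of the same step in only part of the libraries and the siNC reads are rounded. The exact 95% counting interval, which covers counting error only, ran from 7.88-fold to 22.2-fold lower for pair 1 and from 11.5-fold to 45.9-fold lower for pair 2 without TGF-β. With TGF-β it ran from 26.1-fold to 248-fold lower for pair 2, and the 0 reads in pair 1 put this library at least 81.0-fold lower than siNC by the end of the same interval. The interval deposited beside the FPKM was wider than counting alone, at 8.70 to 31.6 FPKM and 11.7 to 39.8 FPKM in the siNC libraries, and stayed above the knockdown libraries' upper ends, the highest of which was 3.45 FPKM.

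**Figure D1:**
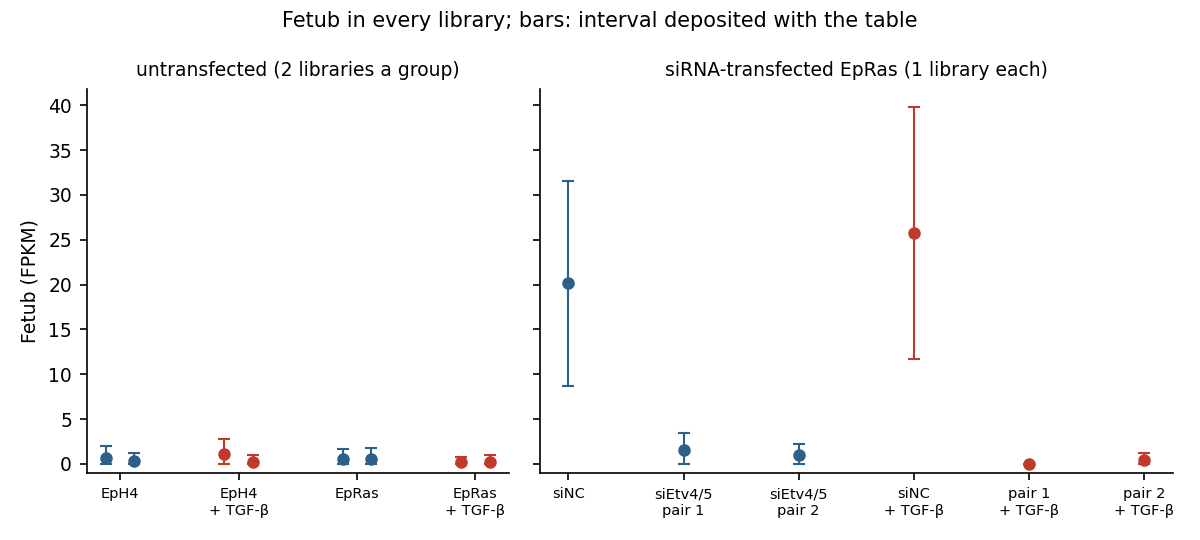
Fetub in FPKM (vertical axis, linear) in each of the 14 libraries, with the untransfected groups on the left and the transfected EpRas libraries on the right. Points are libraries, red marks TGF-β, and bars are the interval deposited for each value. The siNC libraries stand at 20.2 and 25.8 FPKM and no other library is above 1.57 FPKM.

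Among 9094 genes that reached 5 FPKM in a transfected library, 3.05% were at least 2-fold lower than siNC in both pairs without TGF-β and 2.98% with it. Fetub was 29th from the lowest without TGF-β and 12th with it by the log2 difference of the mean of both pairs. Of the 28 genes below it without TGF-β, 13 were snoRNAs and 5 microRNAs by their RefSeq type, and of the 11 below it with TGF-β, 9 were snoRNAs and 2 microRNAs. Among the 7958 genes annotated as protein coding it was 7th without TGF-β, where Prl2c3, Ppbp, Sprr1a and Lce1h were the 4 lowest. With TGF-β it was the lowest of them, followed by Pdyn, S100a8 and Blnk. Fetub had been picked by these values and reached 5 FPKM only in the siNC libraries, where it was high. Its ranks therefore restate that choice and support no conclusion.

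In untransfected cells Fetub was near the limit of detection. It was at 0.620 and 0.331 FPKM in EpH4, 1.08 and 0.231 in EpH4 with TGF-β, 0.491 and 0.547 in EpRas, and 0.174 and 0.224 in EpRas with TGF-β. These values rest on 2 to 7 reads per group, and the groups overlap, except that both EpRas libraries with TGF-β lie below all others. Fetub did not reach 5 FPKM and was not tested there. Without that filter limma gave an adjusted p of 0.964 for EpRas against EpH4 and of 0.644 for TGF-β in EpRas. The level in siNC libraries was thus above that of the same line without transfection, with log2 differences of 3.80 without and 4.48 with TGF-β, 29th and 9th highest of 9512 genes. Fetub was 1 of 7 genes more than 3 log2 units higher in siNC in both conditions, with Cpa4, Cyp1b1, Gm7367, Ppbp, S100a8 and Snord34, so that the siNC libraries stood apart from untransfected EpRas in more genes than Fetub. The siNC libraries are also the reference of every knockdown value, so that an effect of the control siRNA and one of the knockdown cannot be told apart. The differences from untransfected EpRas set 2 tables beside each other that were normalized separately, and transfection, control siRNA, culture and run cannot be told apart in them. The knockdown libraries, at 0 to 1.57 FPKM, lay near the untransfected EpRas libraries, at 0.174 to 0.547 FPKM.

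The protein-coding neighbours of Fetub that reached 5 FPKM did not show its low knockdown values. Within 200 kb the tables list 11 further genes, and Ahsg (fetuin-A, the closest relative of Fetub), Hrg and Kng1 were at 0 in all 14 libraries. Tbccd1, which lies on the side of Ahsg, was at 5.23 to 9.04 FPKM in the transfected libraries. Dnajb11, which encodes a chaperone of the endoplasmic reticulum, was at 83.5 to 127 FPKM. The mean of both pairs stood at 79.5% and 111% of siNC for Tbccd1 and at 135% and 71.2% for Dnajb11, without and with TGF-β. Eif4a2 and Rfc4, listed under 1 shared locus, stood at 134% and 108%, and at 101% and 103%. Of the snoRNA genes listed there, Snora81 was at 227 and 50.3 FPKM in siNC and at 11.3% and 39.3% of it in the mean of both pairs, and at 0 to 163 FPKM in untransfected libraries. Snord2 was listed at 0 in siNC and up to 146 FPKM after knockdown without TGF-β, and at 107 FPKM in siNC and 0 in both pairs with it. Over the 6 transfected libraries, the genes whose log2(FPKM + 1) had the highest Pearson r with Fetub were Sox9 (r = 0.996), Qars (r = 0.991) and Pafah2 (r = 0.991). They were the top of 9094 genes over 6 points that share their libraries, and their own ranges were narrow, as for Sox9 at 25.4 to 37.3 FPKM.

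The TGF-β difference of Fetub did not pass the test in the transfected libraries. With siRNA as a block, the limma difference was -0.50 (SE 0.32, adjusted p = 0.432, 95% confidence interval -1.31 to 0.31) over 3 pairs of libraries. The siNC value was higher with TGF-β and both knockdown values were lower. The difference was -0.92 without siNC and -0.07 without pair 1, and -1.60 and -0.08 with pseudocounts of 0.1 and 5 FPKM, and none of these passed the test.

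C3 was the most abundant member in every untransfected library and its values separated all 4 groups. It was at 47.0 and 50.7 FPKM in EpH4 and at 66.4 and 63.1 FPKM in EpH4 with TGF-β. The EpRas values were 13.3 and 12.2 FPKM untreated and 4.99 and 5.49 FPKM with the cytokine. No 2 groups overlap, and the treated libraries were the highest within EpH4 and the lowest within EpRas. The share of all genes whose groups of 2 libraries separate was not counted, here and for the genes below. These values rest on 106 to 1992 reads per library. The epithelial marker sums were 9023 and 8516 FPKM in EpH4 with TGF-β and 4843 and 6166 FPKM in EpH4. In EpRas they were 5151 and 4065 FPKM untreated and 2439 and 4096 FPKM with TGF-β. Treated EpH4 was thus highest in these sums too, while untreated EpRas overlapped both untreated EpH4 and treated EpRas. The fibroblast marker sums had the same order of groups as C3 and Lcn2, at 247 and 222 FPKM in EpH4 with TGF-β, 22.7 and 26.8 in EpH4, 12.3 and 13.6 in EpRas, and 8.42 and 11.1 in EpRas with TGF-β. Col1a1 made up most of the EpH4 sums, at 18.7 and 21.3 FPKM untreated and 224 and 200.04 FPKM treated. Col1a2 had the same order of groups, at 13.2 and 12.3 FPKM in EpH4 with TGF-β and 2.38 and 3.53 in EpH4. In EpRas Col1a2 was at 0.735 and 0.638 FPKM untreated and 0.1205 and 0.413 FPKM treated. Other markers were higher in untreated EpRas than in untreated EpH4. Pdgfrb was at 7.14 and 8.11 against 0.915 and 0.988 FPKM, and Pdgfra at 2.33 and 3.16 against 0.668 and 0.986 FPKM. With TGF-β Pdgfrb was higher in EpH4, at 8.24 and 7.21 FPKM, and lower in EpRas, at 3.81 and 5.34 FPKM. Pdgfra was higher in treated EpH4, at 2.27 and 2.07 FPKM, and overlapped in EpRas. Lum was listed at 0 throughout and Dcn in all of EpH4. Of the 7 members, 3 (C3, Lcn2 and Hp) reached 5 FPKM in an untransfected library and were tested with 9100 genes in all. Hp passed through a single library, EpH4 replicate 1, whereas C3 and Lcn2 reached 5 FPKM in EpRas as well.

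C3 was lower in EpRas than in EpH4, with log2 differences of -1.86 without TGF-β (SE 0.14, limma adjusted p = 0.000232) and -3.398 with it (SE 0.14, adjusted p = 1.31e-05). The mean FPKM was 3.83-fold and 12.4-fold lower in EpRas. Of all genes tested, 17.6% were called between the untreated lines and 21.3% with TGF-β. The genes called as lower in EpRas were 9.11% and 12.3% of all genes tested. In bulk RNA, fewer cells that express a gene and less RNA per cell cannot be told apart.

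C3 was lower with TGF-β in EpRas, and its difference did not pass the test in EpH4. In EpRas it fell by 1.14 on the log2 scale (SE 0.14, adjusted p = 0.00603), where 3.82% of all genes tested were called and 1.92% of all were called as lower. This call was lost without EpRas replicate 1 (adjusted p = 0.0585, difference -1.08). In EpH4 the difference was 0.40 (SE 0.14, adjusted p = 0.143), treated and untreated libraries did not overlap, and of all genes tested 9.4% were called, with 6.48% of all called as higher and 2.91% of all as lower. The difference between both effects was itself tested, at -1.54 (SE 0.20, adjusted p = 0.0221), and 0.802% of all genes tested were called, with 0.626% of all called as lower. Leaving out any library other than replicate 2 of EpRas with TGF-β took this last call away, with differences from -1.60 to -1.48 and adjusted p-values from 0.0558 to 0.167.

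**Figure D2:**
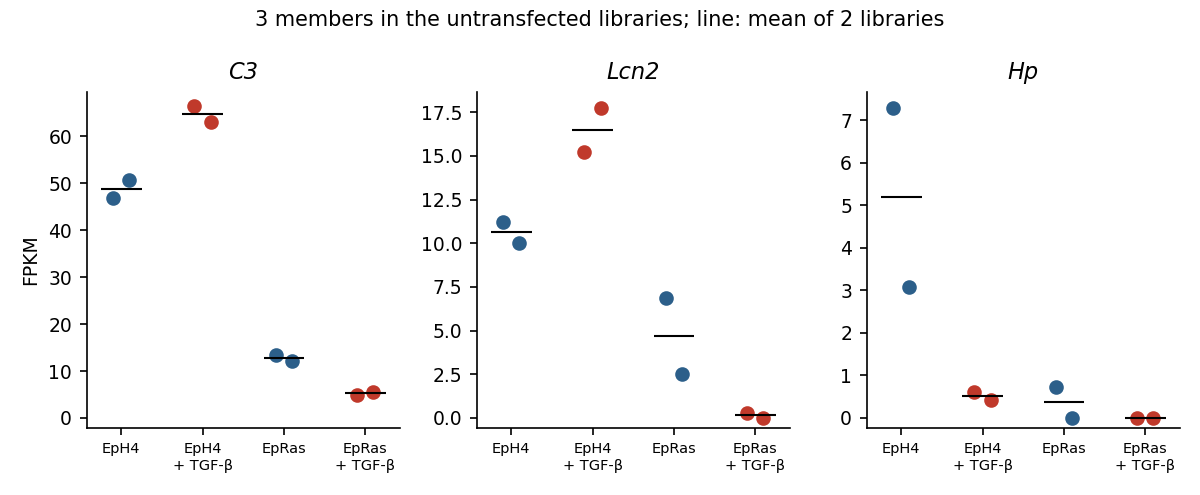
FPKM of C3, Lcn2 and Hp (vertical axes, linear, 1 scale per gene) in the 4 untransfected groups, with each library as a point and the mean of 2 libraries as a line. Red marks TGF-β. C3 and Lcn2 are highest in EpH4 with TGF-β and lowest in EpRas with TGF-β, whereas Hp is high only in untreated EpH4.

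Lcn2 followed the same order of groups at a lower level. It was at 11.2 and 10.0 FPKM in EpH4, 15.2 and 17.8 in EpH4 with TGF-β, 6.86 and 2.54 in EpRas, and 0.305 and 0 in EpRas with TGF-β. The groups do not overlap, but both untreated EpRas libraries lay far apart from each other. With TGF-β, Lcn2 was lower in EpRas than in EpH4 (log2 difference -3.93, SE 0.35, adjusted p = 0.000319). The reads were 115 in both EpH4 libraries against 1 in both EpRas libraries, a ratio of 97.7 at a counting interval of 17.2 to 3892. Without TGF-β the difference between the lines was -1.14 (SE 0.35, adjusted p = 0.0660) and passed the threshold only when EpRas replicate 1 was left out. The difference was -1.72 in that fit and -0.56 without EpRas replicate 2. In EpRas Lcn2 fell by 2.21 with TGF-β (SE 0.35, adjusted p = 0.0166), from 27 reads to 1, a ratio of 23.6 at an interval of 3.90 to 968. That call was lost without either EpRas library treated with TGF-β, at adjusted p-values of 0.0654 without replicate 1 and 0.0740 without replicate 2. In EpH4 the TGF-β difference was 0.59 (SE 0.35, adjusted p = 0.366). The difference between both effects was -2.79 (SE 0.50, adjusted p = 0.0649) and passed only without EpRas replicate 2 (-3.37, adjusted p = 0.0280).

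Hp was detected mainly in untreated EpH4. It was at 7.30 and 3.07 FPKM in EpH4, 0.619 and 0.416 in EpH4 with TGF-β, 0.733 and 0 in EpRas, and listed at 0 in both EpRas libraries with TGF-β. Untreated EpH4 lay above the other groups, which overlap or lie within 3 reads of 0. Hp fell with TGF-β in EpH4 by 1.94 (SE 0.37, adjusted p = 0.0190), from 77 reads over both libraries to 6, a ratio of 9.78 at an interval of 4.29 to 27.5. Leaving out replicate 1 of EpH4 (adjusted p = 0.0796, difference -1.43), replicate 1 of EpH4 with TGF-β (adjusted p = 0.117) or its replicate 2 (adjusted p = 0.137) took this call away. The filter let Hp in only through the group where it was high, which favours such a fall, and without the filter the adjusted p was 0.0415. It was lower in untreated EpRas than in EpH4 (-2.14, SE 0.37, adjusted p = 0.00799), at 3 reads against 77, a ratio of 18.98 at an interval of 6.26 to 94.1. The same holds for this comparison, where the adjusted p without the filter was 0.0198. That call was lost without EpRas replicate 2 (-1.75, adjusted p = 0.0550). With TGF-β the line difference was -0.60 (SE 0.37, adjusted p = 0.289).

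**Figure D3:**
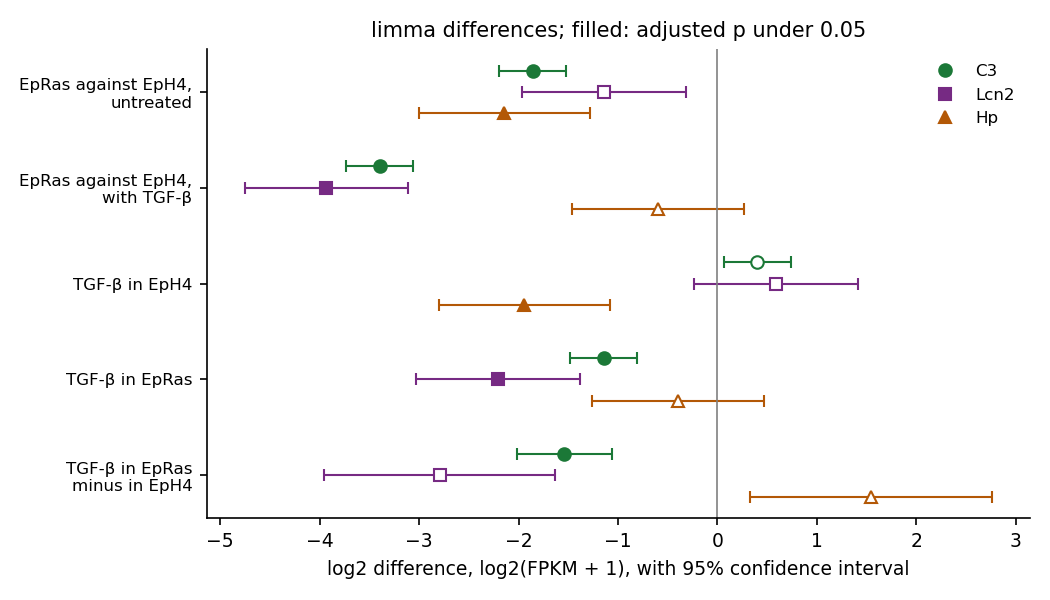
limma differences of C3, Lcn2 and Hp on the log2(FPKM + 1) scale (horizontal axis) for 5 comparisons of the untransfected groups, with 95% confidence intervals. Filled symbols have an adjusted p under 0.05. All 3 genes lie left of 0 in both comparisons of EpRas with EpH4, and the TGF-β differences of C3 and Lcn2 lie on opposite sides of 0 in EpH4 and EpRas.

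Saa3, Cfb and Ltf stayed at or near the limit of detection. Saa3 was at 0.517 and 0 FPKM in EpH4 and at 2.15 and 0.962 FPKM in EpH4 with TGF-β, on 1 and 5 reads. It was listed at 0 in all EpRas libraries, transfected or not. Without the 5 FPKM filter, Saa3 was called lower in EpRas than in EpH4 with TGF-β (limma difference -1.31, adjusted p = 0.0256), where 1 group is entirely at 0. Cfb was at 0 to 0.623 FPKM in untransfected libraries and at 0.117 to 0.2996 FPKM in transfected libraries, on at most 10 reads. Its highest value was replicate 2 of EpH4 with TGF-β, and a group had at most 12 reads. Ltf was listed at 0 everywhere but in pair 1 without TGF-β, at 0.0390 FPKM. Of 11 other genes for milk products, 5 were at 0 in all untransfected libraries.

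In the transfected libraries C3 and Lcn2 were higher than siNC in 3 of the 4 knockdown libraries each, the opposite side from Fetub. The share of all genes with such a pattern was not counted. Without TGF-β the siNC library itself lay below untransfected EpRas, by log2 differences of -1.06 for C3 and -1.82 for Lcn2. These were 215th and 52nd lowest of 9512 genes, between tables normalized separately. With TGF-β the differences were -0.57 and 0.24. Their part in the knockdown values was not tested. C3 was at 5.60 FPKM in siNC, 14.9 in pair 1 and 7.81 in pair 2 in untreated cells, and at 3.22, 7.05 and 2.69 FPKM in treated cells. Pair 1 was 2.66-fold above siNC (counting interval 2.28 to 3.13) and pair 2 was 1.40-fold above (1.17 to 1.66). With TGF-β pair 1 was 2.19-fold above siNC (1.84 to 2.62) and pair 2 stood at a ratio of 0.838 (0.664 to 1.05). C3 did not meet the rule of 2-fold in both pairs, which 2.23% of all genes met as higher without TGF-β and 1.87% with it, and with 1 library per pair the values of the pairs have no replicate check. The fibroblast markers added up to 5.50 FPKM in siNC, 25.7 in pair 1 and 16.6 in pair 2 without TGF-β and to 11.7, 43.9 and 22.4 FPKM with it. Among them Col1a1 was at 0.629 FPKM in siNC, 14.3 in pair 1 and 2.07 in pair 2 when untreated, and the treated values in the same order were 2.44, 27.7 and 5.40 FPKM. Col1a2 was at 0.409, 2.99 and 1.37 FPKM untreated and at 0.282, 3.04 and 1.15 FPKM treated. Pdgfrb was at 1.09, 5.25 and 9.35 FPKM untreated and at 2.09, 10.1 and 12.02 FPKM treated. Both were higher than siNC in all 4 knockdown libraries, as was Col1a1. The list did not move as one. Pdgfra was at 3.21, 1.76 and 3.67 FPKM untreated and at 6.79, 2.33 and 3.86 FPKM treated. Lum was listed at 0, and Col3a1 and Dcn reached at most 1.07 and 0.303 FPKM. The part of the fibroblast markers in the C3 values was not tested. Lcn2 was at 0.620 FPKM in siNC, 2.74 in pair 1 and 2.92 in pair 2 without TGF-β, on 3, 18 and 18 reads. Under TGF-β Lcn2 was at 0.356 FPKM in siNC, 0 in pair 1 and 1.34 in pair 2, on 3, 0 and 8 reads. Its ratios to siNC without TGF-β were 4.42 (interval 1.29 to 23.4) and 4.72 (1.38 to 25.0). With TGF-β the intervals included 1, at a ratio of 3.75 (0.901 to 22.0) for pair 2 and an upper end of 3.05 for the 0 reads of pair 1. Hp was listed at 0 in both siNC libraries and had 2 and 3 reads in pairs 1 and 2 without TGF-β.

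**Figure D4:**
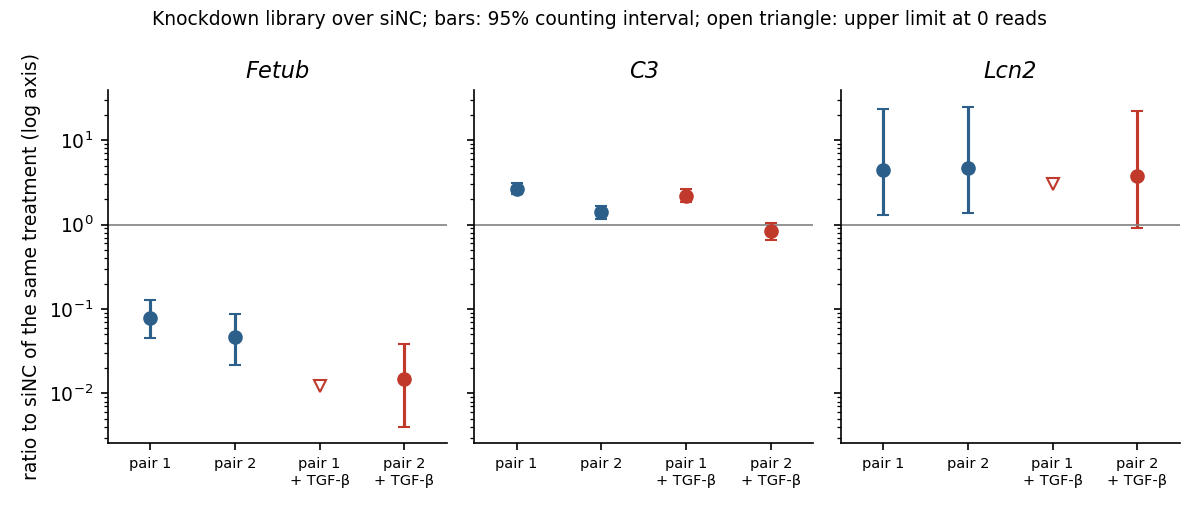
Ratio of each knockdown library to siNC of the same treatment (vertical axis, logarithmic) for Fetub, C3 and Lcn2, with exact 95% counting intervals from the reads behind each value, 1 library per point. Red marks TGF-β, and an open triangle is the upper limit of a library with 0 reads. Fetub lies below 0.13 in all 4 libraries including its intervals, while 3 of the 4 C3 points lie above 1.

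C3 was lower with TGF-β in the transfected EpRas libraries as well. Each of the 3 siRNA conditions had a lower value with TGF-β, and the limma difference with siRNA as a block was -0.96 (SE 0.17, adjusted p = 0.0442), where 4.17% of 9094 genes were called and 1.55% of the 9094 were called as lower. The call was lost without pair 1 (-0.95, adjusted p = 0.285) and without pair 2 (-0.81, adjusted p = 0.199). siRNA conditions stand in for replicates in this fit.

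Likeness over the 8 untransfected libraries was described by the Pearson r of log2(FPKM + 1) among the 9100 genes tested. C3 was most like Pml (r = 0.991), Iqsec1 (r = 0.991) and Crabp2 (r = 0.991), of which Crabp2, a retinoic acid binding protein, had the widest range, from 8.04 to 249 FPKM. Lcn2 was most like Mocos (r = 0.994), Csf1 (r = 0.977) and 2810453I06Rik (r = 0.972). Csf1, the macrophage growth factor, ranged from 39.8 to 146 FPKM. Hp was most like Rpia (r = 0.967), Cdkn2aipnl (r = 0.964) and Ang2 (r = 0.960). All 8 points share their libraries and fall into 4 groups.

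Of 32 other genes listed for the acute phase, which include intracellular and membrane proteins, 18 were at 0 in all untransfected libraries and 4 reached the filter. Ceruloplasmin (Cp), a copper-binding ferroxidase, was at 15.4 and 12.1 FPKM in EpH4, 7.22 and 8.54 in EpH4 with TGF-β, 4.47 and 5.47 in EpRas, and 1.31 and 0.563 in EpRas with TGF-β. It was lower in EpRas without TGF-β (-1.30, SE 0.23, adjusted p = 0.00951) and with it (-2.22, SE 0.23, adjusted p = 0.000664), and it fell with TGF-β in EpRas (-1.65, SE 0.23, adjusted p = 0.0100). Cp was also the 1 gene of the list at least 2-fold higher than siNC in both pairs without TGF-β, as were 2.23% of all genes. It was at 5.31 FPKM in siNC, 15.9 in pair 1 and 22.7 in pair 2. With TGF-β the values of Cp in the same order were 2.01, 1.69 and 2.40 FPKM. The intracellular metallothionein Mt2 was lower in EpRas than in EpH4 with TGF-β (-1.93, adjusted p = 0.00322), as was Mt1 (-0.99, adjusted p = 0.0397), and Mt1 fell with TGF-β in EpRas (-1.39, adjusted p = 0.0378). Both calls of Mt1 were lost without the filter (adjusted p = 0.0616 and 0.0730). With TGF-β both metallothioneins were at least 2-fold lower than siNC in both pairs, as were 2.98% of all genes. Mt1 was at 239 FPKM in siNC, 71.7 in pair 1 and 96.9 in pair 2, and Mt2 at 154, 55.9 and 32.5 FPKM. Neither met this rule without TGF-β, where Mt1 was at 445, 448 and 315 FPKM and Mt2 at 329, 219 and 135 FPKM. Cd14, the lipopolysaccharide co-receptor, was higher in EpRas without (1.39, adjusted p = 0.00308) and with TGF-β (1.12, adjusted p = 0.00539). The median difference of the 4 genes was -0.49 between the untreated lines and -1.46 with TGF-β, beside medians of -0.0031 and -0.0077 over all 9100 genes, and 1 of 4 and 3 of 4 were called as lower, the latter 2 of 4 without the filter, against 9.11% and 12.3% of all genes.

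Complement genes other than C3 and Cfb moved in both directions, and 4 of 33 reached the filter. C1ra, a protease of the classical pathway, was lower in EpRas without (-1.45, adjusted p = 0.0142) and with TGF-β (-2.35, adjusted p = 0.00141). Masp1, a protease of the lectin pathway, was higher in EpRas without (1.45, adjusted p = 0.00378) and with TGF-β (1.10, adjusted p = 0.00865). Both passed the filter only through the line where they were higher, C1ra at up to 1.20 FPKM in EpRas and Masp1 at up to 4.35 FPKM in EpH4, which favours a call. Without the filter the adjusted p-values without and with TGF-β were 0.0273 and 0.00468 for C1ra and 0.00701 and 0.0134 for Masp1. Clusterin (Clu), an extracellular chaperone that also inhibits the terminal complex, went from 70.2 and 80.7 FPKM in EpH4 to 1591 and 1864 FPKM with TGF-β (4.50, SE 0.29, adjusted p = 0.000197). In EpRas it went from 72.2 and 54.6 to 469 and 849 FPKM (3.31, SE 0.29, adjusted p = 0.00144). C3 and Clu therefore differed in direction under TGF-β in EpRas. Between the lines with TGF-β, Clu was lower in EpRas (-1.45, SE 0.29, limma adjusted p = 0.0119), as C3 was. The median difference of the 4 genes was 0.14 between the untreated lines and -0.76 with TGF-β.

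Of 15 antimicrobial genes, 10 were at 0 in all untransfected libraries and 2 reached the filter. Slpi, a secreted protease inhibitor with antibacterial activity, was at 153 and 209 FPKM in EpH4, 97.2 and 111 in EpH4 with TGF-β, 25.3 and 22.7 in EpRas, and 3.53 and 1.89 in EpRas with TGF-β. It was lower in EpRas without (-2.85, SE 0.25, adjusted p = 0.000437) and with TGF-β (-4.86, SE 0.25, adjusted p = 2.83e-05), and it fell with TGF-β in EpRas (-2.79, SE 0.25, adjusted p = 0.00158). Its 4 groups did not overlap, and as for C3 and Lcn2 the lowest was EpRas with TGF-β. S100a8, a subunit of calprotectin, was the gene of this list at least 2-fold lower than siNC in both pairs without TGF-β, as were 3.05% of all genes. It was at 44.5 FPKM in siNC, 0.520 in pair 1 and 6.10 in pair 2. Under TGF-β S100a8 was at 13.0, 0 and 1.14 FPKM, and it was at 0 to 1.47 FPKM in untransfected libraries. Slpi was also at least 2-fold lower in both pairs with TGF-β, as were 2.98% of all genes. It was at 35.4 FPKM in siNC, 2.46 in pair 1 and 5.97 in pair 2. Without TGF-β the values of Slpi in the same order were 37.9, 30.8 and 26.2 FPKM.

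Of 15 genes for iron and haem handling, 7 reached the filter, and 2 of the 7 were called in untreated EpRas against EpH4, where 17.6% of all genes were called. Haem oxygenase (Hmox1) was lower in EpRas (-0.86, adjusted p = 0.0254) and Lrp1, a scavenger receptor, was higher (1.40, adjusted p = 0.00484). The ferritin chain Fth1 fell with TGF-β in EpH4 (-0.82, adjusted p = 0.0168). In transfected EpRas the other ferritin chain, Ftl1, rose with TGF-β (1.11, limma adjusted p = 0.0212). siRNA conditions stand in for replicates in that fit, where 4.17% of all genes tested were called. In untransfected EpRas Ftl1 was not called, at 3259 and 1858 FPKM untreated and 1211 and 3045 FPKM with TGF-β. Of the cystatin family list, 10 of 15 were at 0 in all untransfected libraries, and 2 reached the filter, the cysteine protease inhibitors Cst3 and Cstb. In the 12 limma fits of both genes over 6 comparisons, 0 were called and 2 had an unadjusted p under 0.05, which 10.9% to 35.8% of all genes had in these comparisons. Of 11 milk protein genes, 4 reached the filter, and Xdh, an enzyme of the milk fat globule, fell with TGF-β in EpH4 (-1.27, adjusted p = 0.0154) and in EpRas (-2.29, adjusted p = 0.00231). Among untransfected libraries Xdh reached the filter only in untreated ones, where it was higher, which favours these calls, and the adjusted p-values without the filter were 0.0267 and 0.00802. Xdh was also at least 2-fold lower than siNC in both pairs, as were 3.05% of all genes without and 2.98% with TGF-β. It was at 33.0 FPKM in siNC, 6.15 in pair 1 and 12.8 in pair 2 untreated, and at 16.4, 0.445 and 2.33 FPKM treated. The casein gene Csn3 was higher in EpRas than in EpH4 with TGF-β (2.34, adjusted p = 0.00413), at 6.97 and 2.93 against 0 and 0.227 FPKM. It passed the filter through the first of these libraries alone, in the group where it was high, which favours such a call, and without the filter the adjusted p was 0.0114.

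Genes for the receptors and transcription factors that act upstream of acute phase genes were mostly expressed, with 16 of 27 reaching the filter. With TGF-β, 6 of the 16 were called as lower and none as higher in EpRas, at a median of -0.43, where 12.3% of all genes were called as lower. Of these 6, Tlr2 passed the filter only through EpH4 (adjusted p = 0.0110 without the filter) and Tnfrsf1a lost its call without it (adjusted p = 0.0534). Between the untreated lines 1 of the 16 was called as lower, Il6st, and 2 as higher, Cebpd and Socs3, at a median of -0.40, where 17.6% of all genes were called. The call of Socs3, an inhibitor of cytokine signalling (0.94, adjusted p = 0.0436), was lost without the filter (adjusted p = 0.0638). Il6st (gp130), the shared receptor chain of interleukin-6 cytokines, was lower without (-0.89, adjusted p = 0.0135) and with TGF-β (-1.11, adjusted p = 0.00413). In EpH4, 3 of the 16 rose with TGF-β and none fell, where 6.48% of all genes were called as higher. These were Tlr2 (1.26, adjusted p = 0.0135), Stat3 (0.66, adjusted p = 0.0360) and the NF-κB inhibitor Nfkbia (1.22, adjusted p = 0.0175). Cebpd, a C/EBP factor of the acute phase, was at 9.84 and 13.4 FPKM in EpH4 and 31.8 and 22.7 FPKM in EpRas (1.16, adjusted p = 0.0240). It fell with TGF-β in EpRas (-1.63, adjusted p = 0.0168), to 6.55 and 9.67 FPKM. In the transfected libraries with TGF-β, Il1r1 and Relb were at least 2-fold higher than siNC in both pairs, as were 1.87% of all genes. Il6ra was at least 2-fold lower in both, as were 2.98% of all genes. No gene of this list met the rule without TGF-β.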

How the data were processed

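The authors deposited FPKM values per gene, with the ends of an interval for each, in 1 table for the untransfected libraries and 1 for the transfected libraries, made per the submitters' processing notes with TopHat2 2.0.11, Bowtie2 2.2.2.2 and Cuffdiff of Cufflinks 2.2.0 on mm10. Replicates were separate columns. The 7 members and all gene lists were chosen with earlier results of these data known. Genes with a maximum of at least 5 FPKM were tested as log2(FPKM + 1) with limma 3.58.1 in R 4.3.3, 1 mean per group over all 8 libraries, and Benjamini-Hochberg adjustment over all genes tested (threshold 0.05). This stands in for the authors' Cuffdiff test, which needs reads. The TGF-β effect in transfected cells had siRNA as a block. Knockdown was not tested. Reads were recovered as whole multiples (within 0.03) of the FPKM worth of 1 read, scaled between libraries by single-start genes, for 5 members in full, Fetub in part and Ltf not at all. Intervals on ratios are exact binomial (scipy 1.17.1) and cover counting error only. All members were named, and of each list up to 4 called genes with the largest differences in untransfected cells. Genes outside that rule (S100a8, Stat3, Cst3, Cstb, Socs3, Tnfrsf1a, Ftl1, Il1r1, Relb, Il6ra, the cell type markers and those ranked or neighbouring) were named for their place in a count. Csta1, Flvcr1, Wfdc18 and Adgre1 were matched by older symbols and Ly6g was not matched. Alternatives were another pseudocount, filter, scaling, fit or set of libraries. The limma fit and the recovery of reads were tested on simulated data.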

Additional observations from a re-analysis of the deposited data

Results flagged for a closer look

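The TGF-β effect on C3 differed between the lines by the interaction contrast (-1.54 on the log2 scale, SE 0.20, limma adjusted p = 0.0221), with both treated EpH4 libraries above and both treated EpRas libraries below their untreated groups. This C3 call was lost with the replicate block (-1.54, limma adjusted p = 0.0831). It was also lost when any library other than replicate 2 of EpRas with TGF-β was left out, with differences from -1.60 to -1.48. For Lcn2 the same contrast was -2.79 (SE 0.50, adjusted p = 0.0649), which misses the threshold and passes it without EpRas replicate 2 (-3.37, adjusted p = 0.0280), and it is listed because every treated EpH4 library was higher and every treated EpRas library lower than all libraries of its untreated group. With 2 libraries a group such separation is weak, and the share of all genes that show it was not counted.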

How the results depend on the processing

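No limma difference changed sign under the alternatives run. The untested knockdown values of 3 members did with 1 pair alone, with TGF-β C3 from 0.48 to -0.19 and Lcn2 from 0.30 to -0.44, and Cfb from -0.034 to 0.044 without and -0.010 to 0.029 with TGF-β. C3 between the lines kept its call under each of them, without TGF-β and with it, as did Lcn2 with TGF-β. With 2 libraries a group and 1 per siRNA, the precision of every value is limited, and zeros and values of a few reads limit Fetub, Saa3, Cfb and Ltf outside siNC. Deviations of same-numbered libraries from their group means had correlations from -0.347 to 0.0785, the lowest between EpRas without and with TGF-β. The positive values were too low to mark a shared origin by number, and the source of the negative value was not tested. With the number as a replicate block the genes called went from 73 to 31 for the difference of TGF-β effects, from 855 to 547 for TGF-β in EpH4 and from 348 to 222 in EpRas. C3 lost the call of the difference of effects (-1.54, limma adjusted p = 0.0831), and no other member changed its call with the block. With a mean of at least 10 FPKM, fewer genes were tested and called, at 1092 with and 880 without TGF-β between the lines, 559 in EpH4, 225 in EpRas and 24 for the difference of effects, and without a filter the last was 117. C3 in untransfected cells was the only member with a value under the mean filter. With only the 2 groups compared, 45 genes were called for TGF-β in EpRas, and C3 there (-1.14, adjusted p = 0.1004), Lcn2 there (-2.21, adjusted p = 0.168), Hp between untreated lines (-2.14, adjusted p = 0.0519) and Hp with TGF-β in EpH4 (-1.94, adjusted p = 0.0577) missed the threshold. Pseudocounts of 0.1 and 5 FPKM took the call of C3 with TGF-β in transfected EpRas (-1.12 and -0.61), 0.1 FPKM that of Hp with TGF-β in EpH4 (-2.99) and 5 FPKM that of Lcn2 with TGF-β in EpRas (-0.88). They moved Fetub after knockdown to -3.91 and -2.01 without and to -6.47 and -2.57 with TGF-β.

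Leaving out 1 library gave 733 to 2064 genes between untreated lines, 822 to 2384 with TGF-β, 239 to 1085 for TGF-β in EpH4, 127 to 413 in EpRas, and 10 to 127 for the difference of effects. Leaving out 1 siRNA condition with both its libraries gave 6 to 526 genes for TGF-β in transfected EpRas and -1.12 to -0.81 for C3 there. Without 1 library, C3 ranged from -1.60 to -1.48 for the difference of effects and -1.20 to -1.08 with TGF-β in EpRas. Hp ranged from -2.66 to -1.63 between untreated lines and -2.45 to -1.43 with TGF-β in EpH4. Lcn2 ranged from -1.72 to -0.56 between untreated lines, -3.37 to -2.22 for the difference of effects and -2.78 to -1.63 with TGF-β in EpRas. The cause of these changes was not tested.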
